A study of Homo sapiens with 42 samples.

Results

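The comparison described here is that of mRNA from K562 cells after 18 h and after 6 h of JTE-607 (JTE). Its members are the 6 libraries that the labels give these treatments, 3 for mRNA JTE 18h and 3 for mRNA JTE 6h, out of 27 mRNA libraries and 42 libraries in the series. K562 is an established cell line from a chronic myeloid leukaemia and is driven by the fusion kinase BCR-ABL1. The JTE cells had received 5 μM of the compound. The groups set beside them were untreated cells (CTRL), cells with 5 μM JTE for 1 h, cells with 1 μM imatinib (IM), a BCR-ABL1 inhibitor, for 6 h or 18 h, and nuclear RNA of cells without treatment or with JTE for 1 h. All treatments ended at the same moment, so the 18 h cells were dosed earlier than the 6 h cells, and each group holds 3 biological replicates of this 1 cell line. The labels and the study's methods name neither a vehicle for CTRL nor a removal of the compound before harvest. The other libraries of the series entered only the fits, the count filters and the means over all mRNA libraries. They include mRNA of cells with 1 μM IM for 1 h or with 110 mM KCl for 1 h or 3 h. The rest are nuclear RNA of cells with IM for 1 h or 18 h or with KCl for 1 h.

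A gene's new transcript is cut behind a poly(A) signal by a complex whose nuclease is CPSF73, the product of CPSF3, and the cut end receives the poly(A) tail. JTE-607 reaches cells as an ester, which the esterase CES1 is known to turn into the acid that binds CPSF73. When the cut fails, RNA polymerase II can run on past the gene's end and into the next gene, which is called readthrough, and exons of that next gene can then appear in RNA although its own promoter is silent. The same nuclease also cuts the mRNAs of replication-dependent histones, which carry a stem-loop in place of a poly(A) tail. Levels here are CPM, a gene's count as a share of its library's total, scaled by TMM, a normalization that holds most genes constant between libraries. CPM values were compared between libraries for the same gene and not between genes, because they are not divided by transcript length. A change in CPM is a change in the share of the mRNA pool, so that fewer molecules of an mRNA per cell, fewer cells that express it and more of other mRNAs cannot be told apart.

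The 6 libraries held 16439848 to 21826935 counts. The 3 JTE 18h libraries resembled each other more closely (Pearson's r over 8817 genes on the log2 scale from 0.990 to 0.997) than the 3 JTE 6h libraries did (0.964 to 0.977). All 10 K562 marker genes, which include erythroid genes as well as BCR and ABL1, were present at both times. Their summed level, unlike the other levels here not scaled by TMM, ran from 4466 to 6847 CPM at 6 h and from 3666 to 4771 at 18 h. Summed markers of T lymphocytes, B lymphocytes and fibroblasts stayed under 9 CPM in every library, with LUM and MS4A1 at 0 in all and CD2, TRAC and CD79B at 0 in the JTE 6h libraries. The summed epithelial list was 355 to 386 CPM at 6 h and 530 to 574 CPM at 18 h. It consisted of KRT8, KRT18 and EPCAM, whereas KRT5 was at 0 in every library and CDH1 was at most 0.387 CPM, and its part in the results was not tested.

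From 6 h to 18 h, 2431 of 18095 tested mRNAs (13.4%) changed, 1404 of them (7.76%) to a higher and 1027 (5.68%) to a lower level. A gene was called here when its Benjamini-Hochberg adjusted p from edgeR's quasi-likelihood test was below 0.05 and its log2 fold change exceeded 0.6 in size. The falls were larger than the rises, with a median log2 fold change of -1.56 among the lower genes and 1.04 among the higher ones. The median of all tested genes was -0.04, so the scaling placed the bulk of genes at no change. Against CTRL, 2388 mRNAs (13.2%) were called at 6 h, 6.73% higher and 6.47% lower, and 975 (5.39%) at 18 h, 3.29% higher and 2.09% lower.

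**Figure D1:**
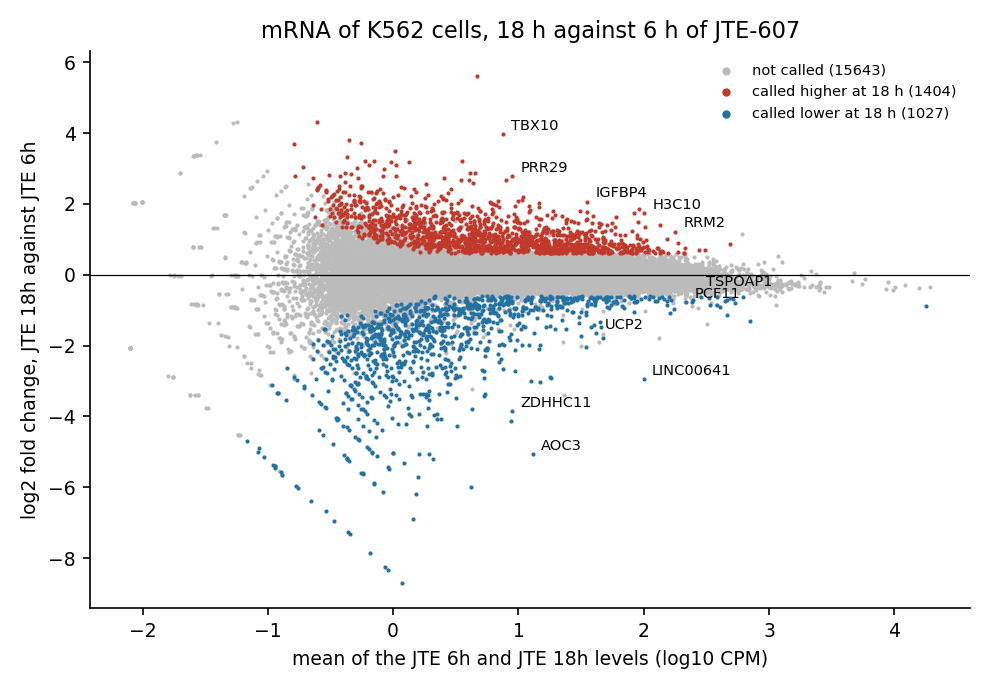
Log2 fold change between 18 h and 6 h of JTE (y axis) against the mean level of both groups (x axis, log10 CPM) for 18074 tested genes (21 genes at 0 in all 6 libraries are not drawn). Red points are the 1404 genes called higher, blue points the 1027 genes called lower, and the falls reach further from 0 than the rises.

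The levels of the called genes were set beside those of CTRL, as a description without a test, because the 3 comparisons share libraries. A group mean was counted as near CTRL when it lay within 0.6 of it on the log2(CPM + 0.5) scale. Of the 1027 mRNAs that fell, 721 had been above CTRL at 6 h. At 18 h the mean of 606 of these was near CTRL and that of 106 was still above it. Another 132 mRNAs were near CTRL at 6 h and below it at 18 h. Of the 1404 mRNAs that rose, 667 had been below CTRL at 6 h, and 602 of these were near CTRL at 18 h. The remaining rises included 331 that were near CTRL at 6 h and above it at 18 h. A further 395 rises and 172 falls were near CTRL at both times. Hence both a return toward the untreated level and late changes away from it occurred among the called genes.

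The 12 genes with the largest called fall, a symbol, a mean of at least 10 CPM at 6 h and no overlap between the libraries of both groups included AOC3, ZDHHC11, TACR2, AOC2, LINC00641, SH3BP5-AS1, ZNNT1, PYGM, ADCY10P1, SGPP2 and TCAP. In CTRL all of the 12 but LINC00641 averaged at most 5.88 CPM. LINC00641, SH3BP5-AS1 and ZNNT1 are long non-coding RNAs and ADCY10P1 is a pseudogene. Among the coding genes, PYGM is the glycogen phosphorylase of muscle, TCAP is a sarcomere protein, and TACR2 is a receptor for neurokinin A. In 9 of the 12 the gene starts within 10000 bases downstream of a gene on the same strand with a mean of at least 10 CPM over all mRNA libraries. The share of all tested genes that do so was not computed. It was 450 of 3168 (14.2%) among tested genes with a mean under 10 CPM that overlap no gene, whereas some of the 12 overlap another gene. Cleavage at the upstream neighbours was not measured here. To show where their transcripts end, the last 30 bases of 5 of them are given, with the poly(A) signal AATAAA in capitals. They were read from hg38 at the gene's 3′ end as deposited with the counts.
PSME3, chromosome 17, 42843729 to 42843758, plus strand, 842 bases before AOC2 and 7426 bases before AOC3: gaAATAAAgtttcctcatcttccaccttgc
CAPN7, chromosome 3, 15252889 to 15252918, plus strand, 1266 bases before SH3BP5-AS1: ccaatagctgAATAAAgtatagatactatt
SF1, chromosome 11, 64764606 to 64764635, minus strand, 4309 bases before PYGM: ttgAATAAAagagcagtgtggttttctggg
NFYA, chromosome 6, 41099947 to 41099976, plus strand, 1046 bases before ADCY10P1: ttaaAATAAAtttataaaaataaccgaaaa
HNRNPC, chromosome 14, 21209136 to 21209165, minus strand, 2236 bases before LINC00641: atacctgataaaatgtaaatggtatgtaaa
The last of these has no AATAAA in this window, nor has STARD3, which ends 703 bases before TCAP. The letters AATAAA on the gene's strand occur in the last 30 bases of 50.7% of 8277 protein-coding genes with a mean of at least 10 CPM, so the signal is no mark of these genes.

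AOC2 and AOC3 are neighbours on chromosome 17 that encode copper amine oxidases, AOC3 being the vascular adhesion protein. AOC2 (ENSG00000131480, 42844600 to 42850707) stood at 1.05, 1.10 and 1.84 CPM in CTRL, at 16.1, 19.1 and 31.6 CPM after 6 h of JTE and at 2.38, 3.21 and 2.82 CPM after 18 h. Between 6 h and 18 h its log2 fold change was -2.99 (SE 0.36, adjusted p 4.74e-06, as all adjusted p from edgeR). AOC3 (ENSG00000131471, 42851184 to 42858130) stood at 0.496, 0.210 and 0.780 CPM in CTRL, at 17.4, 18.8 and 39.4 CPM at 6 h and at 0.760, 0.774 and 0.732 CPM at 18 h. In both genes every 6 h library lay above every other library of CTRL, JTE and IM plotted for them. AOC3 had the largest fall of the 12, with a log2 fold change of -5.05 (SE 0.53, adjusted p 1.45e-06).

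The non-coding LINC00641 (chromosome 14, 21200079 to 21206900) had the highest CPM of the 12, a value that also depends on transcript length. It stood at 17.5, 12.2 and 30.8 CPM in CTRL, at 34.8, 55.7 and 83.3 CPM after 1 h, at 123, 125 and 282 CPM after 6 h and at 20.5, 25.8 and 22.8 CPM after 18 h. Its level thus climbed through 1 h and 6 h and at 18 h lay within the range of CTRL. The log2 fold change from 6 h to 18 h was -2.94 (SE 0.43, adjusted p 5.75e-05). ADCY10P1, a pseudogene of a soluble adenylate cyclase, averaged 2.06 CPM in CTRL, 13.1 CPM at 6 h and 2.07 CPM at 18 h (log2 fold change -2.67, SE 0.30, adjusted p 2.21e-06).

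Of the 12, only ZNNT1 was called against CTRL at 18 h. ZNNT1, a non-coding RNA 8249 bases downstream of ZNF706, was at 34.4, 25.1 and 35.9 CPM at 6 h and at 4.36, 2.86 and 5.54 CPM at 18 h, with 1.21, 1.26 and 1.56 CPM in CTRL. Its difference from CTRL at 18 h was positive (log2 fold change 1.66, SE 0.28, adjusted p 0.000425), beside a fall of -2.90 between 6 h and 18 h. SH3BP5-AS1 averaged 5.88 CPM in CTRL, 32.4 CPM at 6 h and 4.33 CPM at 18 h. ZDHHC11, a protein palmitoyltransferase, averaged 0.770, 16.7 and 1.15 CPM in the same groups, and no expressed gene lies within 50000 bases upstream of it on its strand. The same holds for TACR2 and SGPP2, a phosphatase of sphingosine 1-phosphate. ZDHHC11 and SGPP2 each overlap another annotated gene, and the counting did not use strand.

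The size of these falls rested unequally on the 6 h libraries. PYGM was at 5.70, 7 and 36.4 CPM at 6 h and at 2.64, 2.62 and 2.20 CPM at 18 h, and its log2 fold change of -2.73 became -1.36 without JTE 6h replicate 3. TACR2 was at 15.4, 13.5 and 50.1 CPM at 6 h, with replicate 3 again the highest. Among all 1027 falls, JTE 6h replicate 3 was the highest of the 3 libraries in 64.9%, against 37.5% of all tested genes. Without this library 752 mRNAs were called lower and 1165 higher, while leaving out a JTE 18h library left 750 to 825 lower and 1159 to 1260 higher. None of the 24 genes with the largest rise or fall lost its call when any of the 6 libraries was left out.

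**Figure D2:**
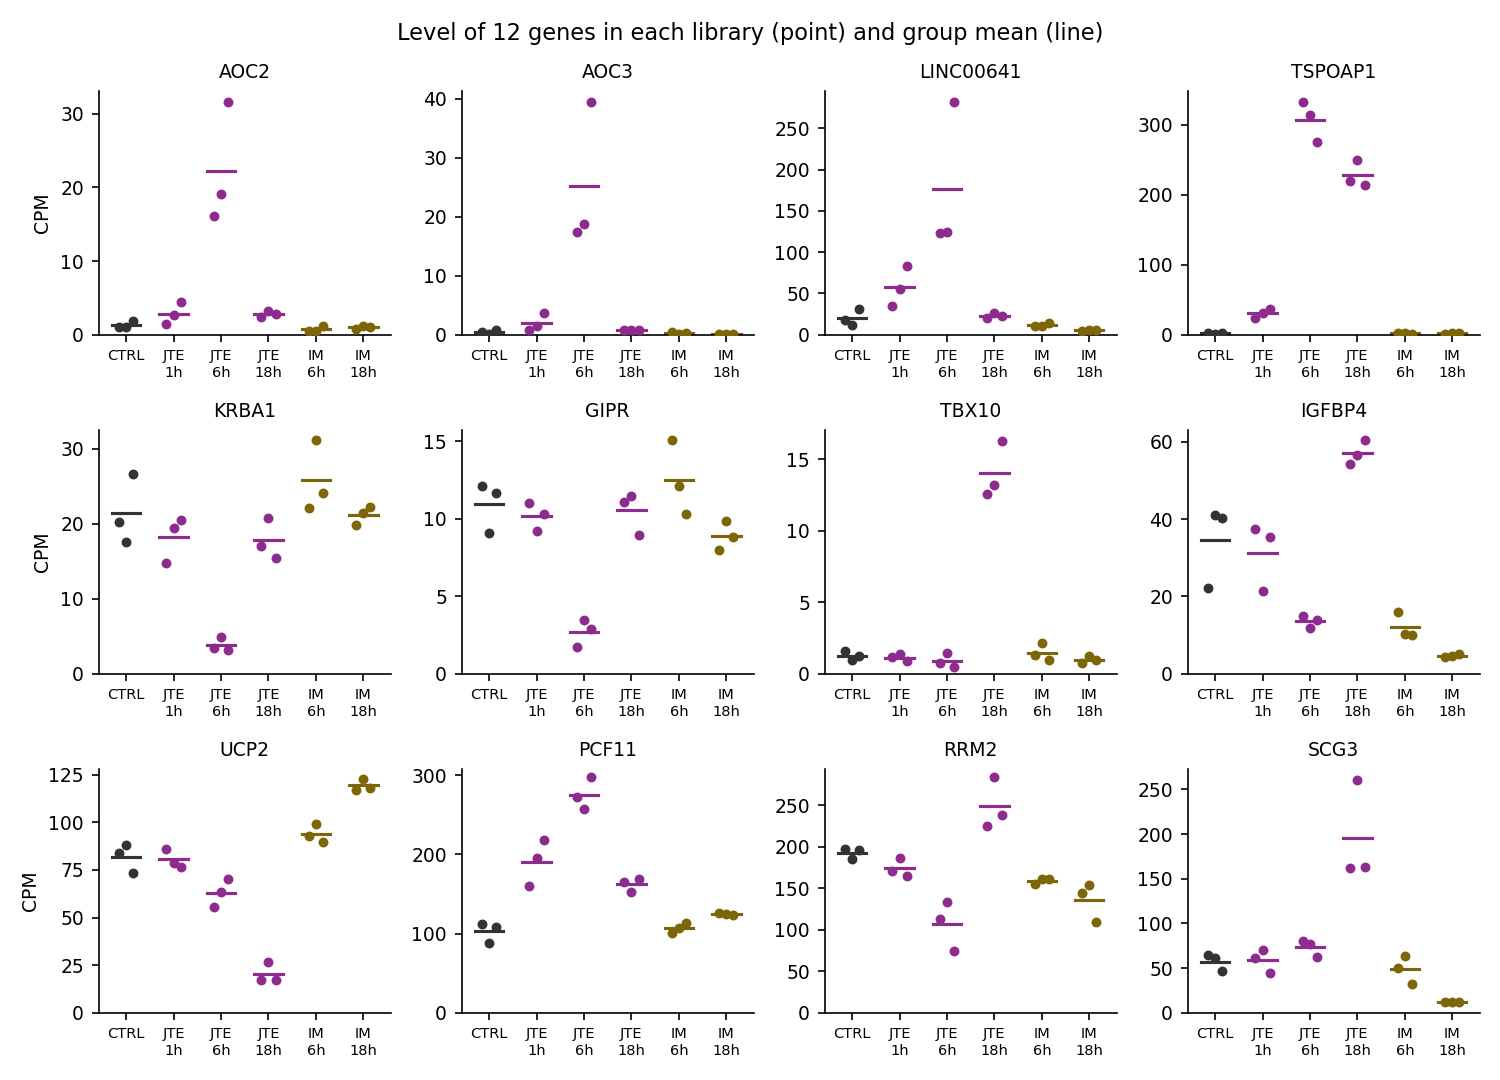
CPM (y axis, linear from 0) of 12 genes in every library (points) with the mean of each group (lines) for CTRL, JTE at 1, 6 and 18 h (purple) and IM at 6 and 18 h (ochre). AOC2, AOC3 and LINC00641 peak at 6 h of JTE, KRBA1 and GIPR dip there, TBX10 and SCG3 are highest at 18 h, UCP2 is lowest at 18 h, and TSPOAP1 remains near its 6 h level.

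TSPOAP1 went another way. It encodes a scaffold protein of the benzodiazepine receptor and lies 16415 bases beyond the end of SUPT4H1 on chromosome 17 (58301228 to 58328760, minus strand), with the microRNA host MIR142HG between them. It was at 2.54, 1.52 and 2.51 CPM in CTRL, at 23.5, 31.1 and 37.3 CPM after 1 h, at 332, 314 and 275 CPM after 6 h and at 219, 250 and 214 CPM after 18 h. The 6 h and 18 h libraries did not overlap, but the difference of -0.43 (SE 0.23, adjusted p 0.198) was not called. At 18 h it was still above CTRL by 6.70 on the log2 scale (SE 0.32, adjusted p 2.86e-12). MIR142HG stood at 15.6, 15 and 6.13 CPM at 6 h and at 11.5, 13.2 and 9.73 CPM at 18 h, and these groups overlapped (log2 fold change -0.09, adjusted p 0.911). TSPOAP1 and MIR142HG each overlap another annotated gene, and the counting did not use strand.

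The position of a gene behind an expressed neighbour was then examined across all genes. Tandem genes were defined as tested genes with a mean under 10 CPM that overlap no gene and start within 10000 bases downstream of a same-strand gene with at least 10 CPM. Of 450 tandem genes, 148 (32.9%) fell and 35 (7.78%) rose between 6 h and 18 h, where 5.68% and 7.76% of all tested genes did. Their median log2 fold change was -0.67. Isolated genes also had a mean under 10 CPM, with no expressed gene within 10000 bases on either strand, but could overlap a gene that was not expressed. Of 4359 isolated genes, 275 (6.31%) fell and 388 (8.90%) rose, with a median of 0.00. Some low genes passed the count filter only through the libraries compared here. With the filter read from the other 21 mRNA libraries, 115 of 393 tandem genes fell and 34 rose, with a median of -0.55, and 231 of 4179 isolated genes fell.

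Low genes without overlap were also split by the distance to the expressed gene upstream, up to 50000 bases and thus beyond the limit for tandem genes, in classes that were chosen after earlier values had been seen. The median log2 fold change was -0.53 where the expressed gene ended at most 1000 bases upstream (72 genes), -0.92 at 1000 to 5000 bases (231 genes), -0.39 at 5000 to 10000 bases (147 genes), -0.08 at 10000 to 25000 bases (269 genes) and 0.01 at 25000 to 50000 bases (263 genes). The share called lower was 34.7%, 35.9%, 27.2%, 19% and 11.4% in these classes. It was 9.05% among all tested genes with a mean under 10 CPM and 5.68% among all tested genes. The share called higher was 5.56%, 6.49%, 10.9%, 14.9% and 11.4%, beside 9.26% and 7.76% in the same 2 backgrounds. The class of 1000 to 5000 bases held the lowest median, and the 2 classes beyond 10000 bases had medians near that of all genes. In the IM cells the medians of the same 5 classes from 6 h to 18 h lay between 0.01 and 0.10. The classes up to 10000 bases include genes that passed the count filter only through the libraries compared here.

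A score for each library, the mean log2(CPM + 0.5) of the tandem genes minus that of the isolated genes, gives the same contrast in 1 number. It was -0.33, -0.47 and -0.31 in CTRL and -0.22, -0.10 and 0.03 after 1 h of JTE. It reached 0.16, 0.25 and 0.47 after 6 h and stood at -0.22, -0.19 and -0.20 after 18 h. All 18 h libraries lay below all 6 h libraries, by -0.50 on average, and above all 3 CTRL libraries. The exact 2-sided permutation test of 18 h against 6 h gave p = 0.1, the smallest value that 3 against 3 libraries allow. The score used all 450 tandem genes, including those that passed the count filter only through the libraries compared here. Such a selection can by itself raise the 6 h scores, and no score was computed with the filter read from the other mRNA libraries. With the replicate number as a block, the permutation test gave p = 0.25. Between IM 6h (-0.38 ± 0.03, SD, n = 3) and IM 18h (-0.42 ± 0.03) the score differed by -0.04 (exact permutation p = 0.3). Convergent genes, which lie tail to tail with an expressed neighbour, included 70 falls (18.3%, beside 5.68% of all tested genes) and 36 rises (9.42%, beside 7.76%) among 382, with a median of -0.15. They too had a mean under 10 CPM, and of all tested genes under 10 CPM 9.05% fell and 9.26% rose. Since the counting ignored strand, reads that run into a convergent gene from the opposite side count for it.

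A set of genes chosen without the 6 libraries came from the first hour of treatment. In nuclear RNA 1868 of 21929 genes (8.52%) were called between JTE 1h and CTRL, 1536 of them (7%) higher. Of these, 946 were tested in mRNA, and 438 (46.3%) fell between 6 h and 18 h while 10 (1.06%) rose. Their median log2 fold change was -1.12. Only 21 of the 946 had a mean of at least 10 CPM over all mRNA libraries. Of these, 9 (42.9%, beside 2.13% of all tested genes at this level) fell, with a median of -0.49. The 332 genes (1.51%) called lower in nuclear RNA at 1 h moved the other way. Of 223 tested in mRNA, 49 (22%) rose and 3 (1.35%) fell, with a median of 0.39. In IM cells the medians of these sets from 6 h to 18 h were 0.13 and -0.06.

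The mRNA at 1 h gave the same picture on fewer genes. There 154 of 18095 mRNAs (0.851%) were called against CTRL. Of the 70 (0.387%) that were higher at 1 h, 59 (84.3%) fell between 6 h and 18 h and none rose, with a median of -1.73. Of the 84 (0.464%) that were lower at 1 h, 19 (22.6%) rose and 1 fell, with a median of 0.32. Relative to CTRL, the median of the 70 genes was 2.14 at 1 h, 3.11 at 6 h and 1.30 at 18 h, 3 values that share the CTRL libraries. With the filter read from the other 21 mRNA libraries, the medians of the 4 sets from 6 h to 18 h were -1.02 and 0.40 for the nuclear and -1.71 and 0.32 for the mRNA sets. The count of 154 depends on its fit, since only 5 mRNAs were called when the 6 libraries of JTE 1h and CTRL were fitted alone, and it was 62 without JTE 1h replicate 3 and 70, 76 and 93 without CTRL replicates 1, 2 and 3.

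**Figure D3:**
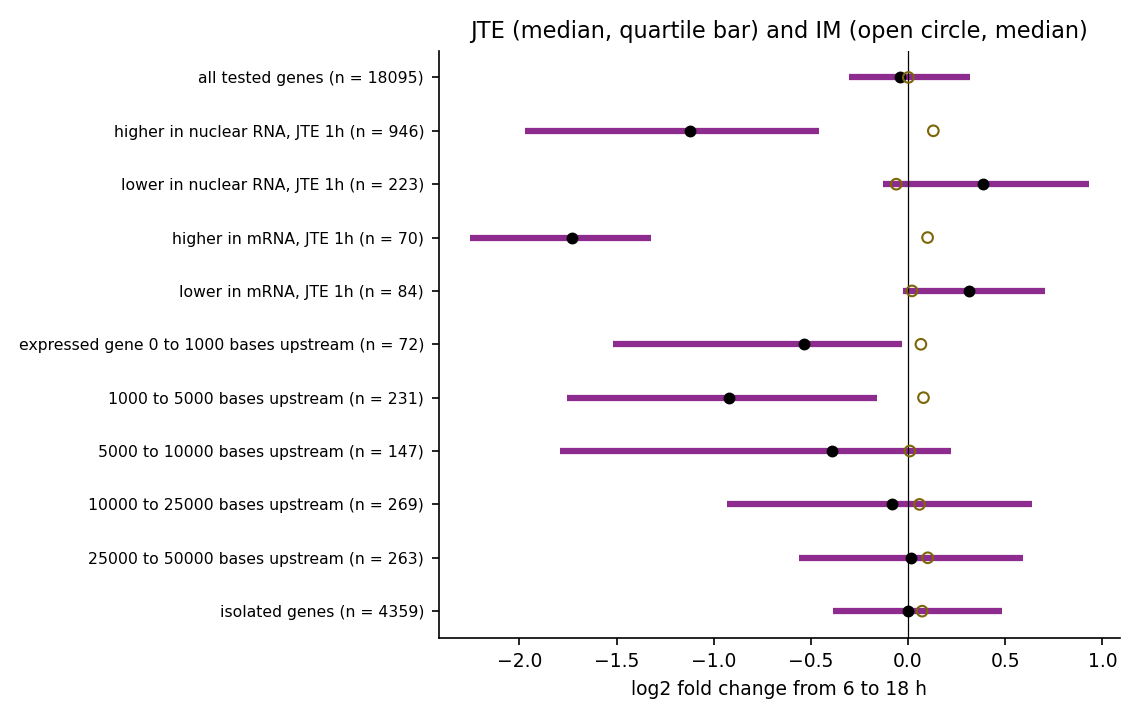
Log2 fold change from 6 h to 18 h (x axis) for gene sets named on the y axis with their number of tested genes; black points are medians and purple bars quartiles under JTE, open circles medians under IM. Sets that were higher after 1 h of JTE and genes within 10000 bases of an expressed upstream gene lie left of 0 under JTE, while the IM medians lie near 0.

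The largest rises began from low values at 6 h. The 12 genes chosen by the same rule were TBX10, PRR29, HYAL1, KRBA1, LPAR5, C1orf116, NYNRIN, IGFBP4, TAFA2, GIPR, EXOC3L2 and ICAM2. One group of them had fallen below CTRL at 6 h and was back at 18 h. KRBA1, a gene with a KRAB-A domain (chromosome 7, 149714781 to 149734575), was at 20.2, 17.6 and 26.6 CPM in CTRL, at 3.47, 4.89 and 3.21 CPM at 6 h and at 17.1, 20.8 and 15.5 CPM at 18 h. The rise from 6 h to 18 h was 2.21 on the log2 scale (SE 0.20, adjusted p 1.64e-07), and the 18 h level differed from CTRL by -0.27 (adjusted p 0.404). GIPR, the receptor of gastric inhibitory polypeptide, was at 12.1, 9.06 and 11.7 CPM in CTRL, at 1.74, 3.47 and 2.87 CPM at 6 h and at 11.1, 11.5 and 8.94 CPM at 18 h (log2 fold change 1.96, SE 0.23, adjusted p 4.4e-06).

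ICAM2, an adhesion molecule of blood and endothelial cells, averaged 14.6 CPM in CTRL, 3.91 CPM at 6 h and 14.9 CPM at 18 h (log2 fold change 1.93, SE 0.26). LPAR5, a receptor of lysophosphatidic acid, averaged 14, 4.03 and 17.4 CPM in these groups (log2 fold change 2.10, SE 0.29). In both genes the libraries of 6 h lay below all libraries of CTRL and 18 h. IGFBP4, which binds insulin-like growth factors, was at 22.1, 41.2 and 40.2 CPM in CTRL, at 15, 11.9 and 13.9 CPM at 6 h and at 54.4, 56.6 and 60.4 CPM at 18 h (log2 fold change 2.07, SE 0.31, adjusted p 5.13e-05).

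Other rises led above the untreated level. TBX10, a T-box transcription factor (chromosome 11, 67631303 to 67639560), was at 1.60, 0.995 and 1.23 CPM in CTRL, at 0.744, 1.48 and 0.479 CPM at 6 h and at 12.6, 13.2 and 16.3 CPM at 18 h. Its log2 fold change of 3.97 (SE 0.35, adjusted p 1.04e-07) was the largest rise under the rule, and it was called against CTRL at 18 h (3.46, adjusted p 4.48e-07) but not at 6 h (-0.51, adjusted p 0.415). HYAL1, a lysosomal hyaluronidase, averaged 5.57 CPM in CTRL, 2.17 CPM at 6 h and 13.7 CPM at 18 h (log2 fold change 2.67, SE 0.37, adjusted p 2.45e-05). C1orf116 averaged 4.50, 3.79 and 16.2 CPM in these groups, NYNRIN 3.83, 2.65 and 11.2 CPM, PRR29 2.96, 2.22 and 15.5 CPM and TAFA2, a secreted chemokine-like protein, 8.36, 5.71 and 23.3 CPM. All 4 were called against CTRL at 18 h and none of them at 6 h. PRR29 overlaps ICAM2 on the opposite strand, and the counting did not use strand. EXOC3L2 averaged 10.7, 5.01 and 19.2 CPM and was called against CTRL at neither time.

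A further class of mRNAs was near CTRL at 6 h and lower at 18 h. The following examples were chosen after their values had been seen. UCP2, a carrier of the inner mitochondrial membrane (chromosome 11, 73974667 to 73983307), was at 83.9, 88.2 and 73.5 CPM in CTRL, at 55.8, 63.3 and 70.1 CPM at 6 h and at 17, 26.7 and 17.2 CPM at 18 h. Its fall from 6 h was -1.64 (SE 0.14, adjusted p 5.55e-08). In IM cells it stood at 92.6, 99.2 and 89.7 CPM at 6 h and at 117, 123 and 118 CPM at 18 h, so that its change in JTE differed from that in IM by -1.99 (SE 0.19, adjusted p 2.19e-06). GPAA1, a subunit of the transamidase that attaches GPI anchors, averaged 32.4 CPM in CTRL, 31.5 CPM at 6 h and 13.1 CPM at 18 h (log2 fold change -1.27, SE 0.12, adjusted p 1.64e-07). ZFPM2, a partner of GATA factors, averaged 40.0, 36.0 and 12.4 CPM, and SUMF2 75.6, 63.8 and 25.5 CPM in these groups. The log2 fold change of SUMF2 (-1.32) was -0.98 without JTE 6h replicate 3, which held 91.2 CPM beside 52.9 and 47.5 CPM in the other two.

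Of 68 listed replication-dependent histone genes 42 were tested, and 20 of them (47.6%) were called higher and 1 lower, against 7.76% and 5.68% of all tested genes. The median log2 fold change was 0.87, with quartiles of 0.34 and 1.49, and 37 of the 42 had a positive value. The summed level of the 42 was 2039, 1680 and 1357 CPM at 6 h and 2173, 2590 and 2290 CPM at 18 h. Against CTRL the median was 0.02 at 6 h and 1.22 at 18 h. All 42 are measured in libraries selected with oligo-dT, whereas correctly processed histone mRNA has no poly(A) tail. Of 10 variant histones, which carry ordinary poly(A) tails, none was called by edgeR (3 higher and 2 lower at an unadjusted p under 0.05), DESeq2 called 1 higher, and the median was -0.05. No gene of 12 for histone 3′ end processing, among them SLBP, the protein that binds the stem-loop, was called by either tool (none higher and 3 lower at an unadjusted p under 0.05).

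The element at which these histone mRNAs are normally cut was read from hg38, since most members of the group have it, and is shown for 6 of the called genes described next. For H2BC11 it was not found in the window searched, and those of H3C13, H4C15 and H2AC16 are not shown. The stem-loop is in capitals, with 5 bases on either side, on the gene's strand.
H3C10, chromosome 6, 27810511 to 27810536: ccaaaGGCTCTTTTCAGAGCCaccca
H4C8, chromosome 6, 26285126 to 26285151: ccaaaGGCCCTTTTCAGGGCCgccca
H2BC21, chromosome 1, 149886183 to 149886208: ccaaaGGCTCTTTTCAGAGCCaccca
H2AC11, chromosome 6, 27133510 to 27133535: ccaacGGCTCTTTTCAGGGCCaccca
H2AC13, chromosome 6, 27808642 to 27808667: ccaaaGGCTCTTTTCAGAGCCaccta
H4C4, chromosome 6, 26188710 to 26188735: ccaacGGCCCTTTTCAGGGCCaccta
The letters GG, any 2 bases, CTTT, any 2 bases, AG, any base and GCC, in this order within 150 bases after the end of the coding sequence, on the gene's strand, were found in 38 of the 42 tested histone genes and in 18 of the 20 that rose. They were found in 3 of 12643 other tested protein-coding genes (0.0237%).

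The histone mRNAs that rose and had the highest CPM at 18 h were chosen after their values had been seen. H3C10 stood at 64.0, 69.9 and 31.3 CPM in CTRL, at 51.9, 55.4 and 32.8 CPM at 6 h and at 127, 197 and 141 CPM at 18 h (log2 fold change 1.73, SE 0.32, adjusted p 0.000517). H4C8 stood at 34.5, 31.2 and 28.9 CPM in CTRL, at 60.7, 64.6 and 46.9 CPM at 6 h and at 143, 151 and 144 CPM at 18 h (1.34, SE 0.16, adjusted p 4.77e-06). Of the 6 histones described in this paragraph, H4C8 alone was also called above CTRL at 6 h (0.86, adjusted p 0.000423). H2BC21 was at 45.0, 44.8 and 26.2 CPM at 6 h and at 115, 151 and 122 CPM at 18 h. H2AC11 averaged 29.0 and 90.3 CPM, H2AC13 16.1 and 54.7 CPM and H2BC11 55.6 and 99.8 CPM at 6 h and 18 h. In all of them the 18 h libraries lay above the 6 h libraries, and JTE 6h replicate 3 was the lowest, as CTRL replicate 3 was among the CTRL libraries. The call of H2BC11 was lost without JTE 6h replicate 3 (log2 fold change 0.63).

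By size of change the 4 leading histones were scarce ones. H3C13 had 5, 5 and 1 counts in the 6 h libraries and averaged 0.214 CPM there and 1.44 CPM at 18 h (log2 fold change 2.79, SE 0.48). H4C4 averaged 0.673 and 3.15 CPM (2.25, SE 0.37) and H4C15 0.998 and 4.25 CPM (2.10, SE 0.48). H2AC16 had 4, 2 and 1 counts at 6 h, and its call was lost without JTE 6h replicate 3. Its log2 fold change ran from 2.05 to 3.19 on leaving out 1 library. The histone called lower was H2BC14, with 4, 9 and 9 counts at 6 h and 2, 1 and 3 counts at 18 h, a call lost on leaving out any of the 6 libraries but JTE 6h replicate 1 and not made by DESeq2. In IM cells none of the 42 was called between 6 h and 18 h (median 0.40). The difference between the changes in JTE and IM was called for 5 of them, all higher in JTE, beside 6.49% of all tested genes. H4C8 was among the 5 (1.22, SE 0.23, adjusted p 0.00108).

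**Figure D4:**
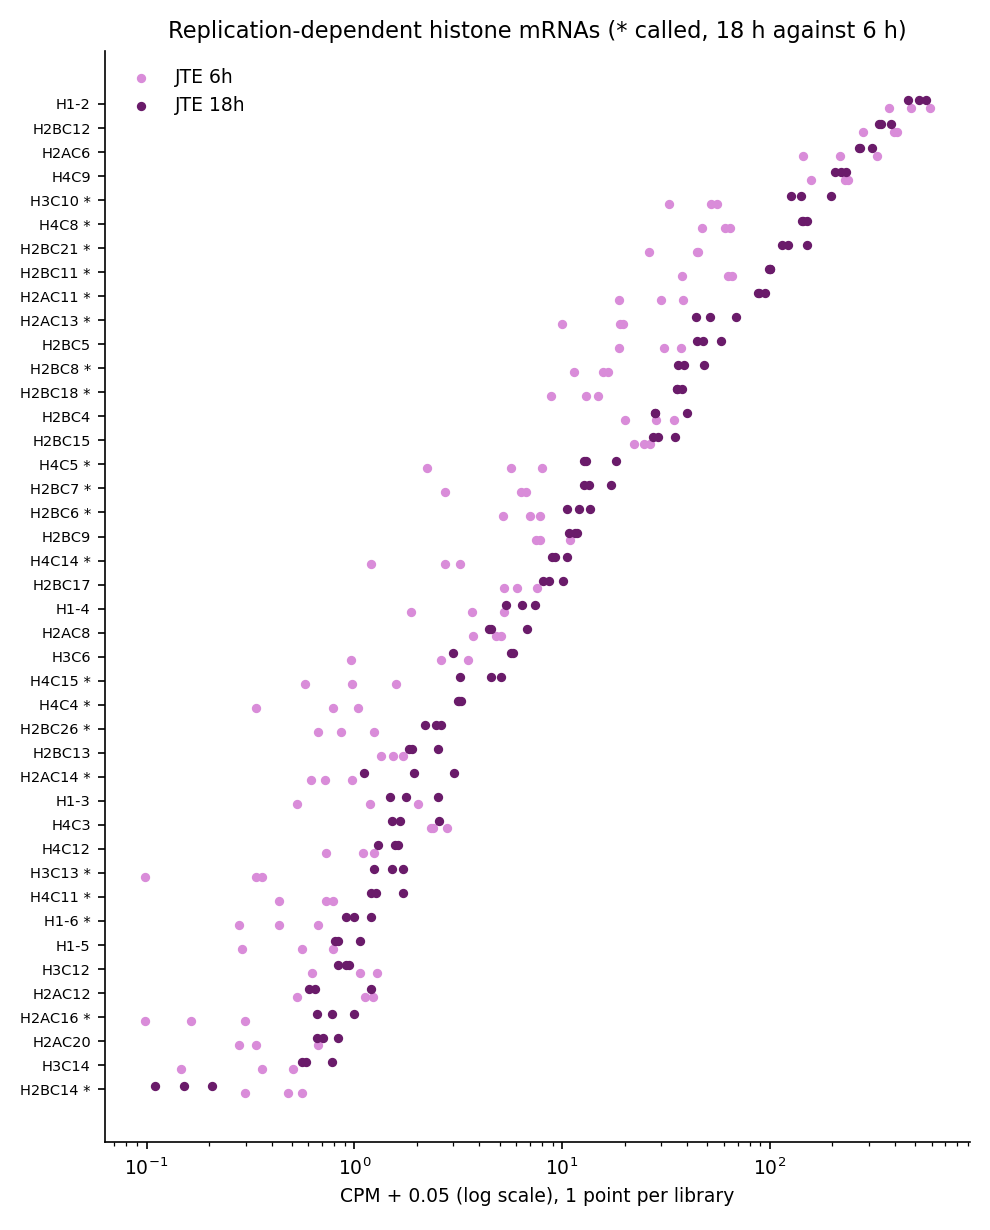
CPM + 0.05 (x axis, log scale) of the 42 tested replication-dependent histone mRNAs (y axis, ordered by their 18 h level) in the 3 JTE 6h libraries (light points) and the 3 JTE 18h libraries (dark points); asterisks mark the 21 called genes. The 18 h points lie to the right of the 6 h points without overlap for 28 genes, which was so for 18.0% of all tested genes.

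The drug target itself was not called. CPSF3 was at 156, 163 and 136 CPM in CTRL, at 203, 175 and 153 CPM at 6 h and at 151, 149 and 149 CPM at 18 h (log2 fold change -0.25, SE 0.10, adjusted p 0.0666). CES1 was not among the tested genes. CES2, a related esterase, was at 19.6, 27.6 and 24.4 CPM at 6 h and at 35.0, 38.3 and 31.8 CPM at 18 h, and its difference of 0.55 was below the fold threshold (SE 0.14, adjusted p 0.00584). It had been lower than CTRL at 6 h (-0.72, adjusted p 0.000481).

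Among 21 genes of cleavage and polyadenylation, 3 fell (14.3%, beside 5.68% of all tested genes) and none rose, and the median was -0.27. All 3 had been raised at 6 h. PCF11, which couples cleavage to termination, was at 112, 88.1 and 108 CPM in CTRL, at 160, 195 and 218 CPM after 1 h, at 272, 257 and 298 CPM after 6 h and at 165, 153 and 169 CPM after 18 h (log2 fold change from 6 h to 18 h -0.76, SE 0.11, adjusted p 4.46e-05). CSTF3, a subunit of the cleavage stimulation factor, was at 151, 122 and 139 CPM at 6 h and at 87.8, 80.5 and 85.8 CPM at 18 h (-0.70, SE 0.10, adjusted p 3.07e-05). RBBP6 averaged 144 CPM in CTRL, 346 CPM at 6 h and 224 CPM at 18 h (-0.62, SE 0.13, adjusted p 0.00101), and it dropped out on omitting JTE 6h replicate 3 or JTE 18h replicate 2 (-0.59 at the smallest). At 18 h all 3 were still above CTRL, by 0.65 to 0.66. Of 16 genes of the Integrator, which cleaves other RNAs with a relative of CPSF73, none was called by edgeR or DESeq2 (2 higher and none lower at an unadjusted p under 0.05), and the median was -0.06. CDK9, the kinase that releases paused polymerase, was the only called gene of 25 for elongation and termination (4% higher, beside 7.76% of all tested genes). It fell from 45.3 CPM in CTRL to 16.8 CPM at 6 h and rose to 32.1 CPM at 18 h (0.94, SE 0.13, adjusted p 1.86e-05).

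Of 45 genes of DNA replication 4 rose (8.89%, beside 7.76% of all tested genes) and none fell, with a median of 0.04. RRM2, a subunit of ribonucleotide reductase, was at 198, 185 and 196 CPM in CTRL, at 113, 134 and 74.7 CPM at 6 h and at 225, 284 and 238 CPM at 18 h (log2 fold change 1.22, SE 0.15, adjusted p 8.22e-06). POLA2, of the primase complex, averaged 65.3, 28.1 and 65.2 CPM in these groups, RFC5, of the clamp loader, 88.0, 58.1 and 105 CPM and DSCC1 39.2, 26 and 41.1 CPM. Without JTE 6h replicate 3 DSCC1 (0.66) was at 0.53 and not called. Of 42 mitotic genes 3, or 7.14%, rose (SPC24 by 1.34, CDC25B by 0.87 and SPC25 by 0.62) and UBE2C fell, with a median of -0.21. SPC25 was not called when JTE 6h replicate 2 or JTE 18h replicate 3 was omitted (0.58 at the lowest). UBE2C, which starts 1149 bases downstream of DNTTIP1, was at most 3.07 CPM in any of the 6 libraries.

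In the BCL2 family 4 of 15 genes rose (26.7%, beside 7.76% of all tested genes) and 1 fell (6.67%, beside 5.68%). The median of 0.05 became -0.06 without JTE 6h replicate 2 and 0.25 without JTE 6h replicate 3. BMF, which promotes cell death, was at 1.61, 1.37 and 1.29 CPM at 6 h and at 3.75, 5.48 and 4.97 CPM at 18 h (log2 fold change 1.73, SE 0.32, adjusted p 0.000419). BAD averaged 1.86 and 4.22 CPM (1.18, SE 0.21) and the protective BCL2L2 13.5 and 25.0 CPM (0.89, SE 0.14), the latter after a fall from 31.9 CPM in CTRL. BAK1 completed the 4 that rose, at 0.65, and fell under the fold threshold without JTE 6h replicate 3 (0.59). BCL2L11, which encodes BIM, stood at 23.8, 36.4 and 67.2 CPM at 6 h and at 20.4, 20.9 and 20.8 CPM at 18 h (-1.04, SE 0.31, adjusted p 0.0197). Its call was lost without JTE 6h replicate 3 (-0.54) and also without any JTE 18h library.

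Genes of the blood lineages changed in several directions. Among 7 tested megakaryocyte markers 3 rose (42.9%, beside 7.76% of all tested genes). F2RL3, a thrombin receptor, was at 17.3, 22.5 and 32.2 CPM in CTRL, at 2.79, 3.02 and 3.74 CPM at 6 h and at 8.67, 11.4 and 9.99 CPM at 18 h (log2 fold change 1.64, SE 0.32, adjusted p 0.00065). The platelet collagen receptor GP6 averaged 9.63, 2.96 and 8.51 CPM in these groups (1.53, SE 0.37). ITGA2B rose by 0.87, a call that was lost without any of the libraries except JTE 6h replicate 3 (0.62 to 1.34). Of 14 erythroid transcription factors only LYL1 was called (7.14% higher, beside 7.76% of all tested genes). It was at 82.7 CPM in CTRL, 23.9 CPM at 6 h and 51.8 CPM at 18 h (1.12, SE 0.18, adjusted p 0.000133). DMTN, of the red cell membrane skeleton, was the only called gene of 19 in its list (5.26% higher, beside 7.76%). It averaged 26.8, 17.6 and 51.5 CPM (1.55, SE 0.28, adjusted p 0.000354).

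Of 11 globin genes 2 fell (18.2%, beside 5.68% of all tested genes), and the list's median was -0.73 in JTE and 1.15 in IM between 6 h and 18 h. Without JTE 6h replicate 1 the median in JTE was -0.34. HBG1, a fetal globin, was at 962, 550 and 391 CPM at 6 h and at 243, 335 and 280 CPM at 18 h (-1.15, SE 0.36, adjusted p 0.0279). The call was lost without JTE 6h replicate 1 (-0.72) and without any of the JTE 18h libraries. HBG1 and HBG2 are nearly identical, and reads common to both were not counted. HBQ1 averaged 4.16 and 2.49 CPM (-0.74, SE 0.20, adjusted p 0.00942), a call not made when JTE 18h replicate 1 or 3 was omitted (-0.62 at the smallest). The change in JTE was below that in IM for 5 of the 11 globins, with HBQ1 at -1.57 (SE 0.27, adjusted p 0.000487), and for 10 of 19 genes of the red cell membrane and blood groups. This difference was called lower for 4.86% of all tested genes.

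The ATF4 and amino acid list, which is induced when amino acids run short, had a median of -0.73, with 24 of 25 genes below 0 and 4 called lower (16%, beside 5.68% of all tested genes). Without JTE 6h replicate 1 the median was -0.40. SLC7A5 and SLC3A2, the subunits of a transporter of large amino acids, were at 243, 179 and 267 CPM and at 177, 124 and 181 CPM at 6 h. At 18 h they were at 114, 131 and 110 CPM and at 85.0, 113 and 88.1 CPM. Their log2 fold changes were -0.96 (SE 0.29, adjusted p 0.022) and -0.75 (SE 0.24, adjusted p 0.0281). Both calls were lost without any 1 of JTE 6h replicates 1 and 3 and JTE 18h replicates 1 and 3, at -0.65 or beyond. SHMT2, of serine and glycine metabolism, lost its call (-0.73) without JTE 6h replicate 3 (-0.48) or any JTE 18h library. VLDLR averaged 0.944 and 0.270 CPM, and it was not called when JTE 6h replicate 1 or 3 or JTE 18h replicate 1 or 2 was omitted (-2.44 to -1.35 over all 6 omissions). The summed level of the list was 2374, 1252 and 2188 CPM at 6 h and 1068 to 1108 CPM at 18 h, so that JTE 6h replicate 2 lay close to the 18 h libraries. In CTRL it was 1234, 3055 and 1803 CPM, with replicate 1 also near the 18 h level.

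None of 78 cytosolic ribosomal protein genes was called by edgeR or DESeq2, but 71 were lower at an unadjusted p under 0.05 and in 68 the libraries of 18 h lay below those of 6 h without overlap, which was so for 20.2% of all tested genes. Their median was -0.30 from 6 h to 18 h, and -0.33 to -0.25 under the other settings. Relative to CTRL it was 0.20 at 6 h and -0.10 at 18 h. In the respiratory chain all 52 nuclear-encoded genes had a negative value and 3 fell (5.77%, near the 5.68% of all tested genes), with a median of -0.25. NDUFA9 averaged 11.8 CPM in CTRL, 27.3 CPM at 6 h and 14.7 CPM at 18 h (-0.89, SE 0.13), whereas NDUFB10 (85.8, 77.0 and 44.3 CPM) and NDUFA3 (22.6, 22.1 and 13.8 CPM) ended below CTRL.

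Single genes of other lists also changed. ENO2, the neuronal enolase, was at 8.55, 9.28 and 9.87 CPM at 6 h and at 29.5, 29.8 and 29.6 CPM at 18 h (log2 fold change 1.68, SE 0.21, adjusted p 8.5e-06), while the aldolase ALDOC averaged 45.3 and 25.4 CPM (-0.83, SE 0.14, adjusted p 0.000159). NFKB2 rose by 0.97 (SE 0.23) and the lysosomal cholesterol exporter NPC1 by 0.77 (SE 0.15). TFE3, a regulator of lysosome genes, rose by 0.69 (SE 0.14). Among long non-coding RNAs PVT1 was at 43.3, 42.2 and 51.7 CPM at 6 h and at 69.2, 81.8 and 82.6 CPM at 18 h (0.77, SE 0.13). CXCL8, an inflammatory chemokine, was at most 1.10 CPM at 6 h and at most 0.157 CPM at 18 h. No gene of the lists of SR proteins and their kinases (20), the MYC network (11), nucleolar ribosome biogenesis (38), the proteasome (31), heat shock proteins (24), snoRNA hosts (20), iron handling (14) or transcripts of the mitochondrial genome (13) was called by edgeR or DESeq2. At an unadjusted p under 0.05 each of these lists had 0 to 3 genes higher and 2 to 13 lower. In 11 targets of STAT5, edgeR called none (2 higher and 1 lower at an unadjusted p under 0.05) and DESeq2 called 1.

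Gene span and type also differed among the called genes. With all tested genes split by genomic span into 5 groups of like size, 12.4% of genes of 2822 to 12410 bases and 10.3% of those of 12411 to 30418 bases rose, against 5.36% of shorter genes, 5.97% of genes of 30420 to 71995 bases and 4.75% of longer ones. The share that fell lay between 4.86% and 6.83% in the 5 groups. Among processed pseudogenes 1.31% rose and 2.95% fell, and among long non-coding RNAs 8.66% rose and 8.66% fell. Over all tested genes 7.76% rose and 5.68% fell.

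The change from 6 h to 18 h in JTE was finally set against the same interval in IM, whose libraries are separate. In IM 798 mRNAs (4.41%) were called, 448 (2.48%) higher and 350 (1.93%) lower. This count was 182, 272 and 1474 without IM 6h replicates 1, 2 and 3 and 220 without IM 18h replicate 1. The excess of higher calls turned in some settings. There were 576 higher and 637 lower without the low-count filter, and 65 and 117 without IM 6h replicate 1. Of the 1404 rises in JTE, 64 also rose in IM (4.56% of the JTE rises and 14.3% of the IM rises) and 58 fell there (4.13% of the JTE rises and 16.6% of the IM falls). Of the 1027 falls in JTE, 24 rose in IM (2.34%, beside 2.48% of all tested genes) and 14 fell (1.36%, beside 1.93%). The difference of the changes, tested as an interaction, was called for 2054 mRNAs (11.4%), 1174 (6.49%) with the higher value in JTE and 880 (4.86%) with the lower. With upper-quartile normalization these were 1045 and 1056, so the excess of higher values rests on the scaling. The 5 largest positive differences, under the rule on level and overlap, were TBX10, CFAP161, IGFBP4, SCG3 and PRR29, and the 5 largest negative ones AOC3, ZDHHC11, ADCY10P1, AOC2 and CFAP70.

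SCG3, a granin of secretory granules, moved in opposite directions. It was at 80.0, 77.1 and 62.4 CPM at 6 h and 162, 261 and 163 CPM at 18 h of JTE, and at 50.3, 63.1 and 32.2 CPM at 6 h and 11.8, 12.2 and 12.4 CPM at 18 h of IM (difference 3.42, adjusted p 5.23e-06). CFAP161, a protein of cilia, averaged 9.99 and 23.8 CPM in JTE and 5.18 and 0.778 CPM in IM (difference 4.001, SE 0.67, adjusted p 0.000437). Its rise within JTE (1.26) lost its call without any library except JTE 18h replicate 2. CFAP70 averaged 13.1 and 3.82 CPM in JTE and 2.31 and 6.38 CPM in IM (difference -3.24). NQO1, an antioxidant enzyme, averaged 64.2 and 97.5 CPM in JTE and 55.2 and 28.1 CPM in IM (difference 1.58, SE 0.23, adjusted p 9.12e-05). Within JTE (0.60) it was not called when JTE 6h replicate 1 or 2 was omitted (0.58 at the lowest).

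**Figure D5:**
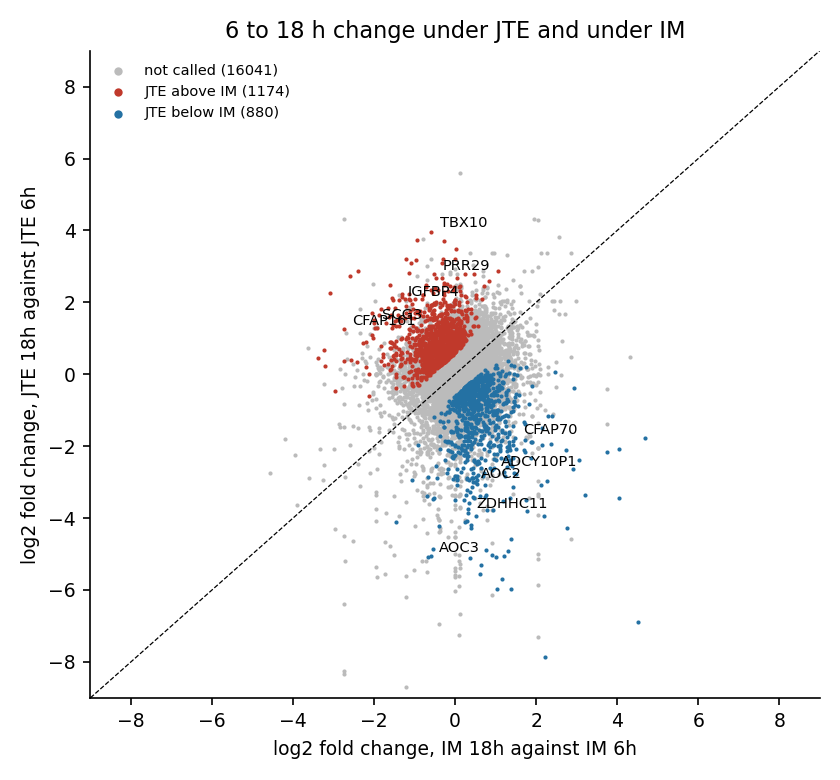
Log2 fold change from 6 h to 18 h under JTE (y axis) against that under IM (x axis) for 18095 genes, with the line of equal change dashed. Red and blue points are the 1174 and 880 genes whose difference was called, and most of them spread along the y axis.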

How the data were processed

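The deposited values were raw counts of read pairs per gene. The authors trimmed and deduplicated the reads, aligned them to hg38 with STAR, allowing introns of at most 10000 bases (GRCh38.p14 in the submitters' processing notes) and counted unique alignments with featureCounts without a strand option, so antisense reads count for a gene and near-identical genes lose shared reads. The annotation release was not given in the sources used here. Gene positions were those deposited with the counts. Of 58243 gene IDs 57532 are in GENCODE 44, which gave gene types and coding ends. Of these, 99.96% overlap their GENCODE 44 position. mRNA was selected with oligo-dT; the medium is RPMI1640 in the labels.

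The members and gene lists were chosen with earlier results of these data known. All 27 mRNA libraries entered 1 edgeR 4.0.16 fit (R 4.3.3; quasi-likelihood test, TMM, filterByExpr), and the nuclear libraries another. It was tested on simulated data. Calls needed both an adjusted p below 0.05 and more than 0.6 on the log2 scale; SE is the fold change divided by the root of F. Genes named were the 12 largest called rises and falls with a symbol, at least 10 CPM in the higher group and no overlap, 5 per direction for JTE minus IM, up to 4 called genes per list, and CPSF3, CES1, CES2, TSPOAP1 and MIR142HG. A result for 1 gene of the largest falls is not reported here. Alternatives were DESeq2 1.42.0, other normalizations, filters and thresholds, fits of fewer groups, a replicate block and leaving out each library. Replicates differed by more than sampling noise (chi-square per gene at least 2.37). The labels call them biological replicates. Deviations from the group means of JTE 18h and JTE 6h libraries with the same number in the titles correlated at 0.20, 0.32 and 0.11. JTE 18h replicate 3 correlated with JTE 6h replicate 1 at 0.12, so its pairing by number is not clear.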

Additional observations from a re-analysis of the deposited data

Results flagged for a closer look

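The change from 6 h to 18 h differed between JTE and IM, by the interaction test of edgeR, for 2054 mRNAs. Among those named, the log2 difference JTE minus IM was 4.56 for TBX10, 4.001 for CFAP161, 3.44 for IGFBP4, 3.42 for SCG3 and 3.30 for PRR29. It was -4.45 for AOC3, -4.18 for ZDHHC11, -3.58 for ADCY10P1, -3.42 for AOC2 and -3.24 for CFAP70. Groups of 3 libraries are too small for a test of single outlying samples.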

How the results depend on the processing

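The 2431 calls between JTE 18h and JTE 6h became 3938 with no fold change threshold, lay within 1.5 times of 2431 in the other settings, and ranged from 1909 to 2590 on leaving out 1 library. The 2054 JTE minus IM calls ranged from 1423 to 2504 in the same way. The 798 IM calls became 1213 without the low-count filter and 1510 without the fold threshold, and ranged from 182 to 1474 on leaving out 1 library. The 154 calls of JTE 1h in mRNA became 237 without the filter and 5 with only the groups compared, and ranged from 62 to 158. The 1868 nuclear calls ranged from 1266 to 1649. On leaving out 1 library, the median 6 to 18 h change ranged from 0.31 to 0.40 for mRNAs lower at 1 h, from -1.21 to -0.91 for genes higher in nuclear RNA and from 0.35 to 0.52 for genes lower there. The cause of these shifts was not tested. The tandem score difference ranged from -0.56 to -0.41 on leaving out 1 library and from -0.70 to -0.29 with other pseudocounts, and its exact p could not fall below 0.1. With only the groups compared, HBQ1 (edgeR adjusted p 0.0541), ITGA2B (edgeR adjusted p 0.0683) and RBBP6 (log2 fold change -0.59) were among the named genes that lost their call. No value in these settings changed sign among the called genes.

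With the replicate number as a block, 2958 mRNAs were called between JTE 18h and JTE 6h, 2952 for JTE minus IM, 1368 for IM, 258 for JTE 1h in mRNA and 2514 in nuclear RNA. The numbers do not pair the IM libraries (correlations of -0.09, 0.25 and -0.30). For JTE 1h and CTRL in mRNA, libraries with the same number correlated at -0.22, -0.24 and 0.86. JTE 1h replicates 1 and 2 correlated with CTRL replicates 2 and 1 at 0.87 and 0.84. The block behind the 258 calls used the numbers and not these pairs, and no block by these pairs was fitted. For 18 h against 6 h of JTE, the block changed the call of none of the genes named here.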

Other observations

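Divergent transcripts, named with the suffix -DT, had a median log2 fold change of 0.31 between 18 h and 6 h of JTE over 238 tested genes, of which 26 (10.9%) rose and 11 (4.62%) fell, beside 7.76% and 5.68% of all tested genes. Antisense transcripts, named with -AS, had a median of 0.09 over 510 genes, of which 49 (9.61%) rose and 29 (5.69%) fell. These classes were formed after earlier values had been seen, and the same medians in IM were 0.29 and 0.21.

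Genes that were higher in nuclear RNA after 1 h of JTE and also tandem numbered 185 in the mRNA test, of which 115 (62.2%) fell and none rose between 6 h and 18 h, with a median of -1.60. Among all tested genes, 337 of the falls were genes with a mean under 10 CPM that overlap no gene, and 148 of these (43.9%) were tandem, beside 35 of 314 such rises (11.1%) and 450 of 3168 such genes tested (14.2%).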
